A study of Homo sapiens with 16 samples.

Results

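HEK293 cells with wild-type receptors that had received IFNL3 were compared with the same cells left untreated, in 4 of the 16 RNA libraries of this series. HEK293 is an established line from human embryonic kidney. The 4 libraries were chosen by their labels, that is the genotype wild-type receptors with the treatment IFNL3 or untreated, each with biological replicates 1 and 2. The series asks about JAK-JAK geometry at the receptor and expression after type I and type III interferons. For comparison, HEK293 cells with receptors that the labels call optimized gave 2 untreated libraries and 2 with IFNL3, and cells with wild-type receptors gave 2 libraries with IFNw (interferon omega, type I) and 2 with H11, labelled as a high-affinity IFNL3. Every group was kept in Free-style medium with antibiotics. The protocol gives 100 nM of ligand for 15 min, and the labels of all groups, untreated cells included, also give 24 hr, with no word on how these times relate. How the cells came to carry their receptors, and whether each genotype is 1 clone, was not given in the sources used here. A mock treatment is not among the groups, so handling and ligand cannot be told apart. The labels say nothing of separate cultures, so p-values measure the spread between these libraries, which may be technical.

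IFNL3 is a type III interferon. It binds a receptor of the chains IFNLR1, listed in the files under the older symbol IL28RA, and IL10RB, which carry the Janus kinases JAK1 and TYK2. The kinases phosphorylate STAT proteins, which join IRF9 to form a factor that binds the interferon-stimulated response element (ISRE) in the promoters of antiviral genes. Type I interferons such as IFNw reach the same factor through IFNAR1 and IFNAR2. Type III signalling is known mainly from epithelial cells, since many other cell types carry little of the IFNLR1 chain.

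The promoters of genes that the response turns on can be read with the ISRE in view. The core searched for was GAAANNGAAA or, on the other strand, TTTCNNTTTC, in the 250 bases before the transcript start. The stretches below are RefSeq sequences of GRCh38.p14, written 5′ to 3′ on the strand of the gene, with every ISRE core in capitals. They were chosen to show separate cores in a pair (IFIT3, IFIT1, IFI6, DDX60), overlapping cores (ISG15, B2M) and single cores near the start (IFI44, IFITM1). The first 7 belong to genes that rose with IFNL3, and the last, B2M, to a gene that did not pass the test.
IFIT3 (chr10:89327835-89327924, + strand): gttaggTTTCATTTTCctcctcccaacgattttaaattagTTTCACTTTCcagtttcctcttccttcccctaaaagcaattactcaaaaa
IFIT1 (chr10:89392480-89392569, + strand): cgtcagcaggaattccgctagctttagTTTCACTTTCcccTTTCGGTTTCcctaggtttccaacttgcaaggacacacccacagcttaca
ISG15 (chr1:1013350-1013439, + strand): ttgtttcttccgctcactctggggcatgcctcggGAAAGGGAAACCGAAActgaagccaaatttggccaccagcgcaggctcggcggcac
IFI6 (chr1:27672236-27672325, - strand): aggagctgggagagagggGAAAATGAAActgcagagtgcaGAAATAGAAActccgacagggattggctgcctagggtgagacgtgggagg
DDX60 (chr4:168318756-168318845, - strand): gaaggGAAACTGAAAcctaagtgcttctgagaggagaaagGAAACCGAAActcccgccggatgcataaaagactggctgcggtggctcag
IFI44 (chr1:78649731-78649788, + strand): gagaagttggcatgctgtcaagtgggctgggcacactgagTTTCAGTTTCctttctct
IFITM1 (chr11:313960-314039, + strand): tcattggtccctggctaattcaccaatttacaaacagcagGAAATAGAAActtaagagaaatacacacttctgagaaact
B2M (chr15:44711339-44711428, + strand): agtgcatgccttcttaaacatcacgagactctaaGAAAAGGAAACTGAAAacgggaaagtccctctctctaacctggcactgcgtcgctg

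A core stood in 25 of the 46 promoters in the table (54.3%) that belonged to interferon-list genes raised 4-fold or more by IFNL3. Its share was 2.40% over the 9323 tested genes with a promoter in the table and 3.07% over all 27305 promoters. In those 25 promoters the nearest core began between 10 and 221 bases before the start (median 73), and 14 of them held more than 1 core. Genes raised 4-fold or more that were in no interferon list had a core in 5 of 92 promoters (5.43%). Genes lowered 4-fold or more had one in 2 of 147 (1.36%), and genes that were not called in 109 of 5639 (1.93%). The interferon lists were drawn up as interferon genes, so a high share in them does not by itself tie the core to the rise. Over all tested interferon-list genes, 37 promoters held a core. Among them were those of B2M and PSMB10, which did not pass the test. A match of letters is a description of the sequence and does not show that a factor binds there.

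The 4 libraries held 8734666 and 9559366 reads (untreated replicates 1 and 2) and 8761603 and 8736786 reads (IFNL3 replicates 1 and 2). A read was found for 14652 and 14744 genes in untreated cells and for 15250 and 15241 with IFNL3. Levels are CPM, read counts scaled to library sizes corrected by TMM, and a change is a log2 fold change with the standard error of the fit (±), tested with edgeR's quasi-likelihood test and Benjamini-Hochberg adjustment over all genes tested. The HEK293 label was checked against markers: 8 of 11 HEK293-expressed genes reached the level needed for testing, and the summed level of the list was 643 and 621 CPM untreated and 656 and 647 CPM with IFNL3. Of 10 blood cell markers 7 had no read in the 4 libraries, among them the pan-leukocyte marker PTPRC, as had 6 of 8 fibroblast markers, among them COL1A2. The summed level of the blood list was 1.09 and 1.70 CPM in untreated cells and 5.46 and 3.05 CPM with IFNL3. Summed fibroblast markers were 32.6 and 30.0 CPM against 22.6 and 24.8 CPM. Fewer cells and less RNA per cell cannot be told apart in such bulk libraries.

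With IFNL3, the transcripts of antiviral effectors, RNA sensors and STAT and IRF factors rose, those of the ATF4 amino-acid response, of ribosomal proteins and of the respiratory chain fell, and most genes of MHC class I presentation did not pass the test. Of 12704 genes tested, 2370 were higher (18.7%) and 2677 lower (21.1%) at an adjusted p under 0.05, and these shares are the background for every list below. Changes past 4-fold were fewer, with 217 genes higher and 240 lower. The interferon lists, which leave out the receptor list, together held 155 genes, of which 129 were tested. Among these 88 rose and 6 fell, with a median log2 change of 1.95 (1.82 with genes that lacked an untreated read set at their lower bound), against a median of -0.01 over all tested genes. All 60 interferon-list genes past 4-fold were higher, whereas the other tested genes had 157 higher and 240 lower past 4-fold. Of the 129 interferon-list genes, 12 had no read in a compared group. Genes without an untreated read could not be called lower, and those with few untreated reads had little room to fall. The split within the interferon lists was thus partly fixed in advance.

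**Figure D1:**
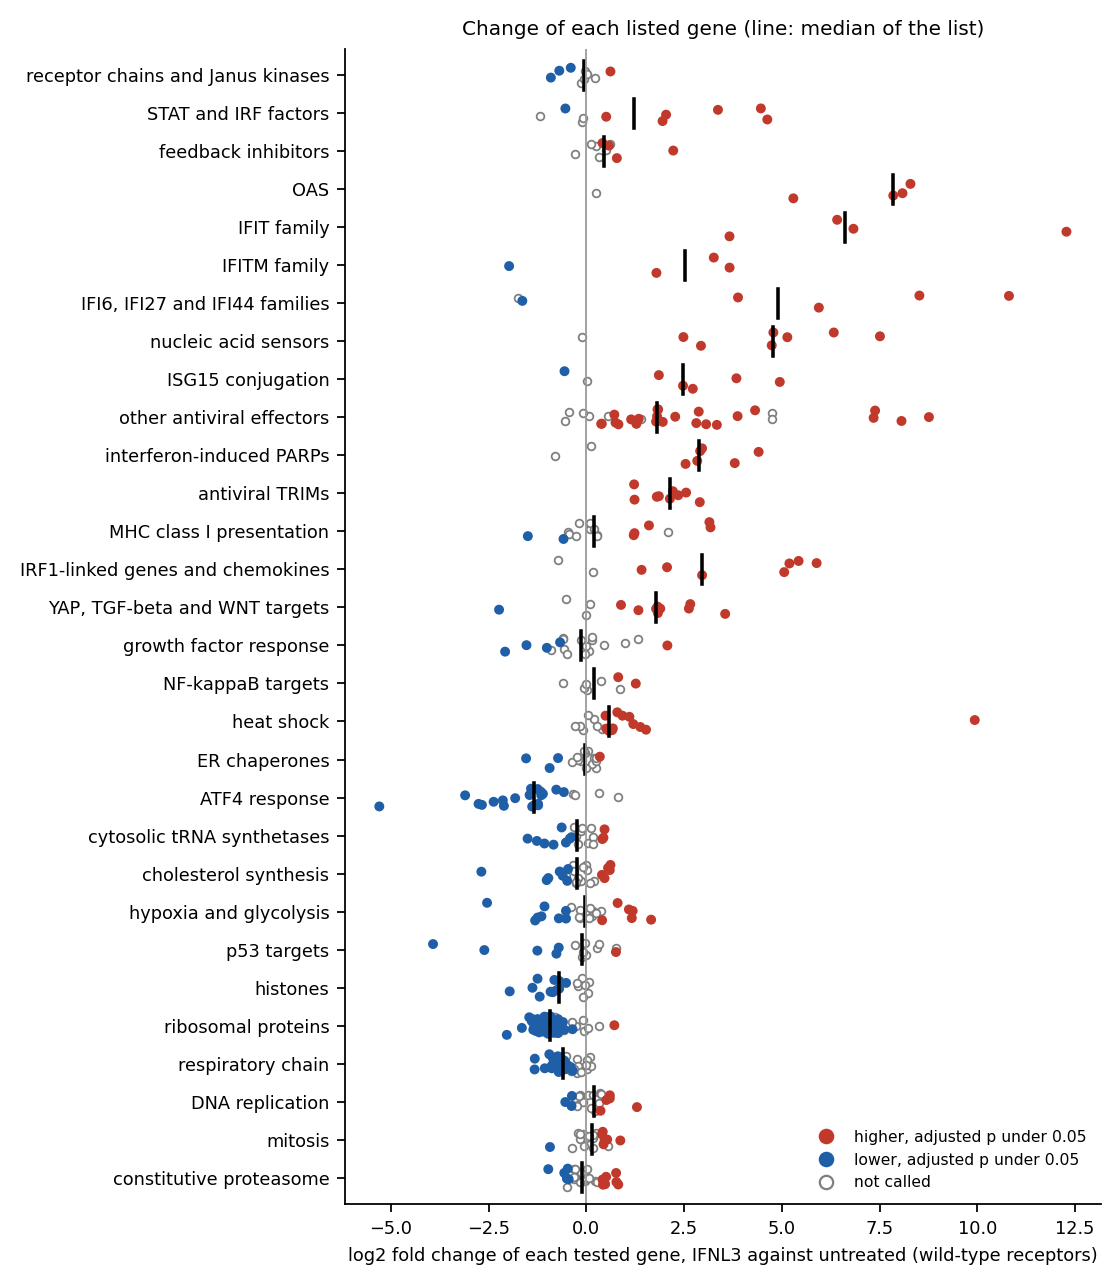
The log2 fold change of each tested gene (horizontal axis, IFNL3 against untreated, wild-type receptors) is plotted by gene list, with filled points for genes called higher (red) or lower (blue), open points for genes that were not called and a line at each list's median. The antiviral lists lie to the right of 0, up to a median of 7.85 for the OAS list, and the ATF4 response (-1.35) and ribosomal proteins (-0.94) lie to the left; positions of genes without an untreated read depend on the fit.

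A pair of properties of the libraries moved with the treatment. The TMM factors were 1.28 in both IFNL3 libraries against 1.06 and 1.05 in untreated ones, and the 50 most abundant genes took 18.1% and 17.7% of reads with IFNL3 against 25.6% and 25.4% without. Scaled by library totals instead, which was chosen after these factors were seen, 4194 genes were higher and 1596 lower, and the median of all tested genes shifted to 0.27. The interferon lists then had 98 members higher and 1 lower, with a median of 2.23. The log2 changes below are on the TMM scale, on which the median gene stood at -0.01. Long transcripts also gained on short ones, and that trend is described with the ribosomal proteins. The part of either property in the lists' changes was not tested.

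Receptor and kinase genes were expressed at low to moderate levels, and 4 of 9 were called, in both directions. IL28RA, the chain that binds lambda interferons, was at 2.50 and 2.49 CPM in untreated cells and 2.59 and 1.97 CPM with IFNL3, so its groups overlapped. The shared chain IL10RB fell from 22.6 and 20.6 CPM to 11.6 and 11.4 CPM, a log2 change of -0.91 ± 0.17 (adjusted p = 4.6e-04). JAK1 (-0.07), IFNAR1 (15.2 and 17.8 CPM untreated, 20.0 and 18.4 CPM with IFNL3) and IFNAR2 (-0.04) did not pass the test. Of the 9 genes in the receptor list, TYK2 was called higher (0.62 ± 0.20, adjusted p = 0.021), and IL10RB, IFNGR1 and IFNGR2 lower, with a median of -0.07. The TYK2 call was lost when any 1 of the 4 libraries was left out, so that 0 of 9 were higher and 2 to 3 lower in those fits. IFNGR1 kept its call in few alternatives: it lost it without either IFNL3 library, without untreated replicate 1, in DESeq2, with library totals, without the low-count filter, with the length offset and in the fit of the compared groups alone. None of the 9 interferon genes listed reached the level needed for testing.

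Among transcription factors, those that carry the interferon signal rose together. STAT2, a signal transducer, went from 35.5 and 28.1 CPM to 129 and 133 CPM (log2 change 2.04 ± 0.13, adjusted p = 5.1e-09). IRF9, which brings the STAT proteins to the ISRE, was at 4.88 and 3.99 CPM before and 106 and 113 CPM after (4.63 ± 0.16). For both genes the treated libraries lay far above both untreated ones, which goes with their being called and adds no support beyond the test. IRF7, which amplifies interferon production, rose from 10.2 and 9.27 CPM to 193 and 237 CPM (4.46 ± 0.24). IRF1, a factor that drives a second group of immune genes, rose from 5.86 and 5.29 CPM to 20.9 and 22.2 CPM (1.95 ± 0.20, adjusted p = 9.6e-07). In all, 6 of 10 tested STAT and IRF genes were higher and 1, IRF5, lower, with a median of 1.23. IRF2 was called higher at 0.51 ± 0.16, but lost the call without IFNL3 replicate 1 and without either untreated library, and IRF5 (-0.54 ± 0.18) lost it without any 1 of the 4 libraries, in DESeq2, with library totals, without the low-count filter and with the length offset. STAT3 (-0.12) and IRF3 (-0.08) did not pass the test.

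The feedback list answered in 1 gene above all. USP18, which binds the type I receptor chain IFNAR2 and damps its signal, also removes ISG15 from proteins. Its level rose from 18.4 and 21.6 CPM to 88.4 and 99.1 CPM (2.22 ± 0.15, adjusted p = 5.8e-09). The other 3 called members, PIAS2, PIAS4 and PTPN11, lost their calls when single libraries were left out: 2 of 10 were higher without IFNL3 replicate 1, without IFNL3 replicate 2 or without untreated replicate 2, and 1 without untreated replicate 1, against 4 of 10 in the full fit and 2 with the length offset. SOCS3, a classic inhibitor of Janus kinases, stood at 0.543 and 0.399 CPM and 0.715 and 0.718 CPM and did not pass the test.

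The 2′-5′ oligoadenylate synthetases sense double-stranded RNA and make a messenger molecule that sets off RNA breakdown. OAS1 was at 0 and 0.499 CPM in the untreated libraries and 70.8 and 77.6 CPM with IFNL3 (8.09 ± 0.32, adjusted p = 7.6e-12). OAS3 rose from 3.47 and 1.99 CPM to 101 and 113 CPM (5.30 ± 0.20). For OAS2 the untreated libraries held 2 reads in all, and the treated level of 36.7 and 37.0 CPM was higher by a ratio of 354 (exact 95% interval 97.8 to 2930.0). OASL had no untreated read and reached 2.59 and 3.77 CPM, which was at least 20.4-fold higher, taking 3 reads over the group as the limit that a count of 0 allows. These 4 genes were all called higher. The median over the 5 tested genes of the list was 7.85 as fitted and 5.30 with OASL at its lower bound.

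IFIT proteins bind viral RNA that lacks the marks of the cell's own messengers. IFIT1 rose from 7.71 and 9.18 CPM to 753 and 692 CPM, a log2 change of 6.42 ± 0.16 (adjusted p = 2.1e-14). IFIT2 rose from 0.543 and 0.499 CPM to 61.7 and 59.9 CPM (6.83 ± 0.33), and IFIT5 from 3.69 and 2.99 CPM to 43.7 and 40.9 CPM (3.66 ± 0.19). IFIT3 had no read in either untreated library and 70.0 and 67.6 CPM with IFNL3, so it was at least 441-fold higher. All 4 tested members were thus called higher, and the promoters of IFIT1, IFIT3 and IFIT5 were the 3 of this family in the table, each with 2 ISRE cores.

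The IFITM proteins sit in membranes and hinder virus entry, and IFI6 and IFI27 are small interferon-induced membrane proteins. IFITM1 went from 5.97 and 4.69 CPM to 52.9 and 49.1 CPM (3.26 ± 0.17, adjusted p = 2.5e-10) and IFITM3 from 3.58 and 3.99 CPM to 48.1 and 48.3 CPM (3.66 ± 0.20). IFITM2 was called at a low level (0.651 and 0.299 CPM to 1.52 and 1.79 CPM), and this call was lost without IFNL3 replicate 2 and without untreated replicate 2. IFI6 rose from 47.5 and 42.0 CPM to 647 and 671 CPM (3.88 ± 0.13, adjusted p = 6.5e-13). IFI27 rose from 0.434 and 0.0997 CPM to 17.6 and 16.2 CPM (5.95 ± 0.34). IFI44 and IFI44L had no untreated read, and with IFNL3 they were at least 159-fold and at least 32.5-fold higher. The lists named for these genes also held falls: IFITM10 (-1.97 ± 0.72) and IFI27L1 (-1.64 ± 0.57) were called lower at levels under 4 CPM, and both calls were lost without IFNL3 replicate 2 or without untreated replicate 1. IFITM10 also lost its call without IFNL3 replicate 1, in DESeq2, with library totals and without the low-count filter, and it was not tested in the fit of the compared groups alone. IFI27L1 also lost its call without untreated replicate 2, with library totals, with the length offset and in the fit of the compared groups alone. Whether reads were split among near-identical copies, such as the IFITM genes, the HLA genes, HSPA1A, histones and ribosomal proteins, was not given in the sources used here.

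Sensors of viral nucleic acid rose in 7 of 8 tested genes, with a median of 4.76 (4.37 with TLR3, which lacked an untreated read, at its bound). DDX58, which encodes RIG-I, went from 15.4 and 18.4 CPM to 439.8 and 465 CPM (4.74 ± 0.16, adjusted p = 1.1e-12). IFIH1, which encodes MDA5, went from 1.30 and 0.499 CPM to 71.5 and 73.1 CPM (6.33 ± 0.30). DDX60 and DDX60L, related helicases, rose by 5.14 ± 0.20 and 4.78 ± 0.29. TLR3, the endosomal sensor of double-stranded RNA, had no untreated read and 2.50 and 2.51 CPM with IFNL3, at least 16.1-fold higher. IFI16, a DNA sensor, rose from 1.95 and 1.10 CPM to 8.32 and 8.70 CPM (2.48 ± 0.30). The other genes of DNA sensing in the list, MB21D1 (cGAS), ZBP1, AIM2 and TMEM173 (STING), had too few reads to be tested.

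ISG15, a ubiquitin-like protein attached to other proteins during the interferon response, went from 19.2 and 17.0 CPM to 521 and 595 CPM (4.95 ± 0.15, adjusted p = 5.9e-13). Its activating enzyme UBA7 rose from 0.760 and 0.399 CPM to 8.59 and 8.17 CPM (3.84 ± 0.38), its ligase HERC5 from 12.5 and 10.1 CPM to 79.1 and 69.7 CPM (2.72 ± 0.16) and the related HERC6 by 2.47 ± 0.17. The conjugating enzyme UBE2L6 did not follow them. It stood at 25.3 and 23.9 CPM in untreated cells and 18.4 and 15.0 CPM with IFNL3 and was called lower (-0.56 ± 0.16, adjusted p = 0.0094). With an offset for transcript length that value was -0.23 ± 0.16 (adjusted p = 0.29), with library totals -0.28 (adjusted p = 0.18), and the call was also lost without IFNL3 replicate 2 (-0.42) and without untreated replicate 1 (-0.52).

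**Figure D2:**
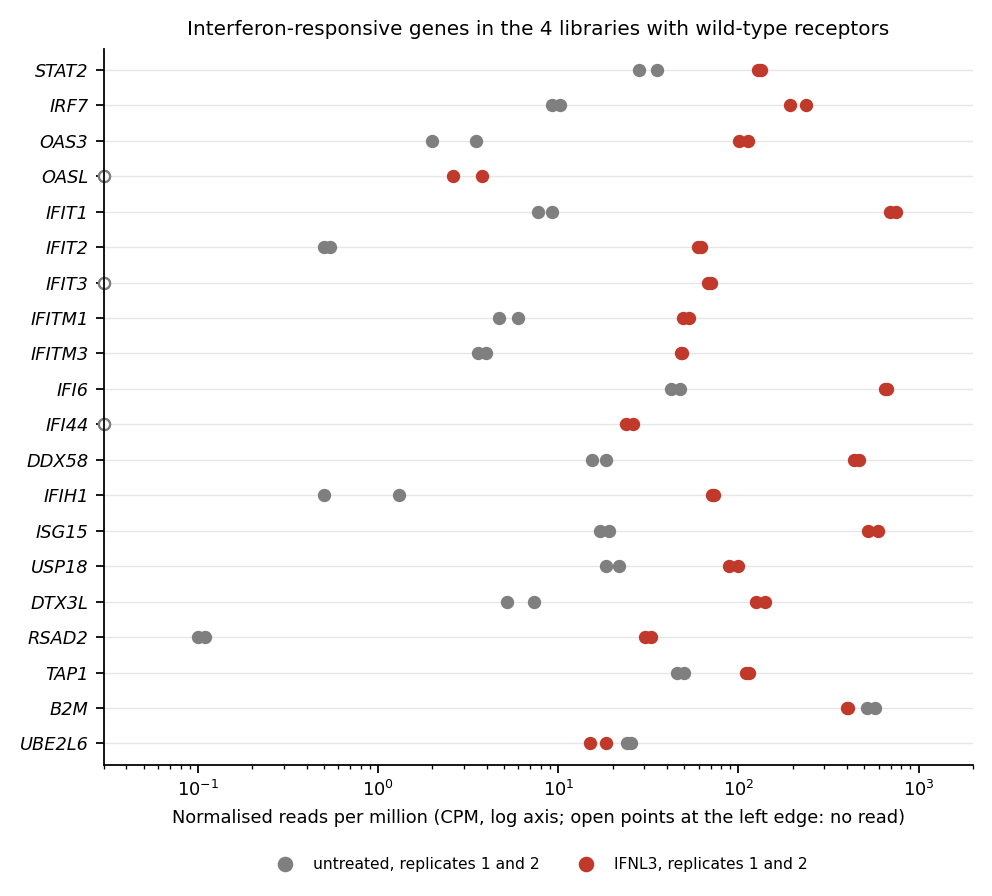
The level of 20 genes is plotted on a log axis in CPM, with 2 grey points for the untreated libraries, 2 red points for the IFNL3 libraries, and open points at the left edge for libraries without a read. IFIT1 moved from 7.71 and 9.18 CPM to 753 and 692 CPM, whereas the points of B2M (517 and 573 to 406 and 401 CPM) stayed close and those of UBE2L6 lay lower with IFNL3.

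Other effectors rose in 25 of 33 tested genes and none fell, with a median of 1.82 (1.78 with genes at their bound). RSAD2, which encodes viperin, had 2 untreated reads and 30.1 and 32.8 CPM with IFNL3, a ratio of 303 (exact 95% interval 83.4 to 2503). CMPK2, its neighbour in the genome, also had 2 untreated reads and reached 43.6 and 58.6 CPM, a ratio of 492 (exact 95% interval 136 to 4065). SAMD9, a restriction factor of poxviruses, had a ratio of 189.6 (exact 95% interval 52.2 to 1571). XAF1, a factor in cell death, had no untreated read and was at least 14.4-fold higher. Of 8 interferon-linked PARP genes and partners, 6 rose and none fell (median 2.87), among them DTX3L from 5.21 and 7.28 CPM to 141 and 126 CPM (4.41 ± 0.19) and its partner PARP9 (3.80 ± 0.32). All 9 tested antiviral TRIM genes rose (median 2.14). They included PML, the scaffold of nuclear bodies (20.8 and 18.8 CPM to 146 and 150.4 CPM, 2.90 ± 0.17), TRIM21, an antibody receptor in the cytosol (2.55 ± 0.18), and TRIM5, a restriction factor of retroviruses (2.14 ± 0.15).

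Antigen presentation by MHC class I is a usual part of interferon responses, and here its genes did not move together. Of 17 tested, 5 rose, 2 fell and 10 did not pass the test, with a median of 0.18. NLRC5, the transactivator of these genes, rose from 6.19 and 8.98 CPM to 60.8 and 74.3 CPM (3.15 ± 0.19, adjusted p = 1.7e-09). The peptide transporter genes rose, TAP1 from 45.8 and 49.9 CPM to 115 and 109.7 CPM (1.23 ± 0.12) and TAP2 by 1.21 ± 0.24. HLA-B, a class I heavy chain, went from 136 and 133 CPM to 92.8 and 86.4 CPM (-0.58 ± 0.17), with its call lost under the length offset (-0.25), with library totals (-0.31), without IFNL3 replicate 2 (-0.53) and without untreated replicate 1 (-0.57). B2M, the light chain, was at 517 and 573 CPM and 406 and 401 CPM (-0.43 ± 0.21, adjusted p = 0.12), lower in both treated libraries but short of the threshold; it passed as lower without the low-count filter (-0.44) and in the fit of the compared groups alone (-0.42). The immunoproteasome subunits PSMB8 (-0.26 ± 0.13), PSMB9 (0.27 ± 0.19) and PSMB10 (0.10 ± 0.13) did not pass the test, although the PSMB10 and B2M promoters both hold an ISRE core. With library totals 10 of the 17 were higher and 1 lower.

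Most genes linked to IRF1 and type II interferon were near the limit of detection, with 14 of 22 at 10 reads or fewer over the 4 libraries. The list still summed to 216 and 220 CPM untreated and 247 and 268 CPM with IFNL3, so some members stood far above that limit. Of 22 listed, 13 had too few reads to be tested, and 7 of the 9 tested were called higher, with a median of 2.96 as fitted and 1.66 with 4 genes at their bound. Genes without an untreated read had passed the low-count filter through other groups and could not be called lower. GBP1, a guanylate-binding GTPase, had no untreated read and 0.447 and 1.17 CPM with IFNL3, at least 5.17-fold higher. CXCL10, a chemokine, was at least 3.16-fold and APOL1 at least 2.87-fold higher. These calls rest on few reads: 4 of 9 were higher without IFNL3 replicate 1, 2 without IFNL3 replicate 2 or without untreated replicate 1, 1 without untreated replicate 2, and 3 in the fit of the compared groups alone.

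Targets of YAP, TGF-beta and WNT signalling, chosen with their change known, moved in a group outside the interferon lists: 9 of 13 tested rose and 1 fell, with a median of 1.78. CYR61, a matricellular protein and YAP target, was at 19.1 and 19.6 CPM in untreated cells and 233 and 222 CPM with IFNL3 (3.55 ± 0.15, adjusted p = 1.1e-11). CTGF, its close relative, went from 2.60 and 3.19 CPM to 14.3 and 21.6 CPM (2.62 ± 0.26). ID1, an inhibitor of differentiation induced by BMP signals, went from 20.8 and 24.3 CPM to 148 and 138 CPM (2.66 ± 0.16), and AMOTL2, a YAP-binding protein, from 11.2 and 16.2 CPM to 53.2 and 48.5 CPM (1.89 ± 0.21). The treated libraries lay above the untreated ones for all 4 genes. They were named as called genes, so this separation adds no support beyond the test. The 1 gene called lower, AXL, lost its call in DESeq2, with library totals, without the low-count filter, without either IFNL3 library and without untreated replicate 1, and it was not tested in the fit of the compared groups alone. None of the 10 promoters of this list in the table held an ISRE core. Given the low share over all tested genes stated above, 10 promoters are too few for this to set the list apart.

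Single genes outside all interferon lists were among the largest rises. PI15, a secreted peptidase inhibitor, was at 0.434 and 0.299 CPM in untreated cells and 22.4 and 21.9 CPM with IFNL3 (5.88 ± 0.33, adjusted p = 8.0e-10). CRYAB, a small heat shock protein, had no untreated read and 12.1 and 15.0 CPM with IFNL3, at least 86.8-fold higher. IL7R, a cytokine receptor chain, had 1 untreated read and 5.81 and 6.37 CPM with IFNL3, a ratio of 117 (exact 95% interval 20.7 to 4664).

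Heat shock genes rose in 12 of 19 tested, with none lower and a median of 0.58. DNAJA1, an HSP40 co-chaperone, was at 196 and 209.6 CPM and 585 and 583 CPM (1.53 ± 0.11, adjusted p = 1.4e-08). HSPA1A, the inducible HSP70, rose from 115 and 130.0 CPM to 307 and 332 CPM (1.38 ± 0.14), and HSPH1, an HSP110 chaperone, from 48.2 and 67.3 CPM to 117 and 148 CPM (1.20 ± 0.23). CHORDC1, an HSP90 partner, rose by 1.10 ± 0.16. Without untreated replicate 1 the count was 8 of 19. Among chaperones and stress genes of the endoplasmic reticulum 1 of 18 was higher and 3 lower (6 and 3 with library totals), among them HERPUD1 (149.8 and 161 CPM to 54.6 and 52.1 CPM, -1.54 ± 0.13) and the stress factor XBP1 (-0.94 ± 0.21), while the chaperone HSPA5 stood at 276 and 256 CPM and 327 and 279 CPM (0.19) and did not pass the test.

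The ATF4 response, which supplies amino acids and handles stress when translation is restrained, fell in 20 of 25 tested genes and rose in none, with a median of -1.35. ATF4 itself went from 1003 and 910.0 CPM to 439 and 421 CPM (-1.15 ± 0.13, adjusted p = 3.3e-06). CHAC1, which degrades glutathione, fell from 109 and 102 CPM to 16.4 and 16.7 CPM (-2.67 ± 0.18). DDIT4, an inhibitor of mTORC1, fell from 117 and 110.2 CPM to 14.8 and 11.7 CPM (-3.10 ± 0.19), and PCK2, a mitochondrial enzyme of gluconeogenesis, from 161 and 158 CPM to 21.3 and 25.9 CPM (-2.76 ± 0.16). INHBE, an activin subunit, fell from 16.1 and 13.2 CPM to 0.358 and 0.359 CPM (-5.30 ± 0.41), and CTH, an enzyme of cysteine synthesis, fell too (-2.37 ± 0.20). In each of these genes both treated libraries lay below both untreated ones. For INHBE and DDIT4 this was a condition for picking them among the largest falls. The others were named as called genes, so the separation adds no support beyond the test. Cytosolic tRNA synthetases, several of which ATF4 drives, had 8 of 20 members lower and 3 higher, with a median of -0.24 that became 0.04 with library totals. Those lower included SARS (-1.50 ± 0.15), CARS (-1.26 ± 0.22) and AARS (-1.07 ± 0.12).

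Other large falls had no list in common. CAPN6, a calpain-like protein of the cytoskeleton, went from 14.2 and 22.9 CPM to 0.626 and 0.269 CPM (-5.33 ± 0.46, adjusted p = 2.0e-07). CRYM, a thyroid hormone-binding protein, went from 239 and 262 CPM to 27.7 and 32.3 CPM (-3.06 ± 0.13). TXNIP, a brake on glucose uptake, fell (-3.12 ± 0.18), as did NEUROG2, a proneural factor, from 20.2 and 17.2 CPM to 1.70 and 1.88 CPM (-3.37 ± 0.25). FGF19, a secreted growth factor, fell (-4.60 ± 0.64), and so did the sulfotransferase gene SULT2B1 (-3.57 ± 0.37). The small GTPase gene RND3 (-3.14 ± 0.39), the telomere-binding factor TERF1 (-2.99 ± 0.41) and the cytidine deaminase gene CDA (-2.94 ± 0.37) were also among the 15 largest falls.

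**Figure D3:**
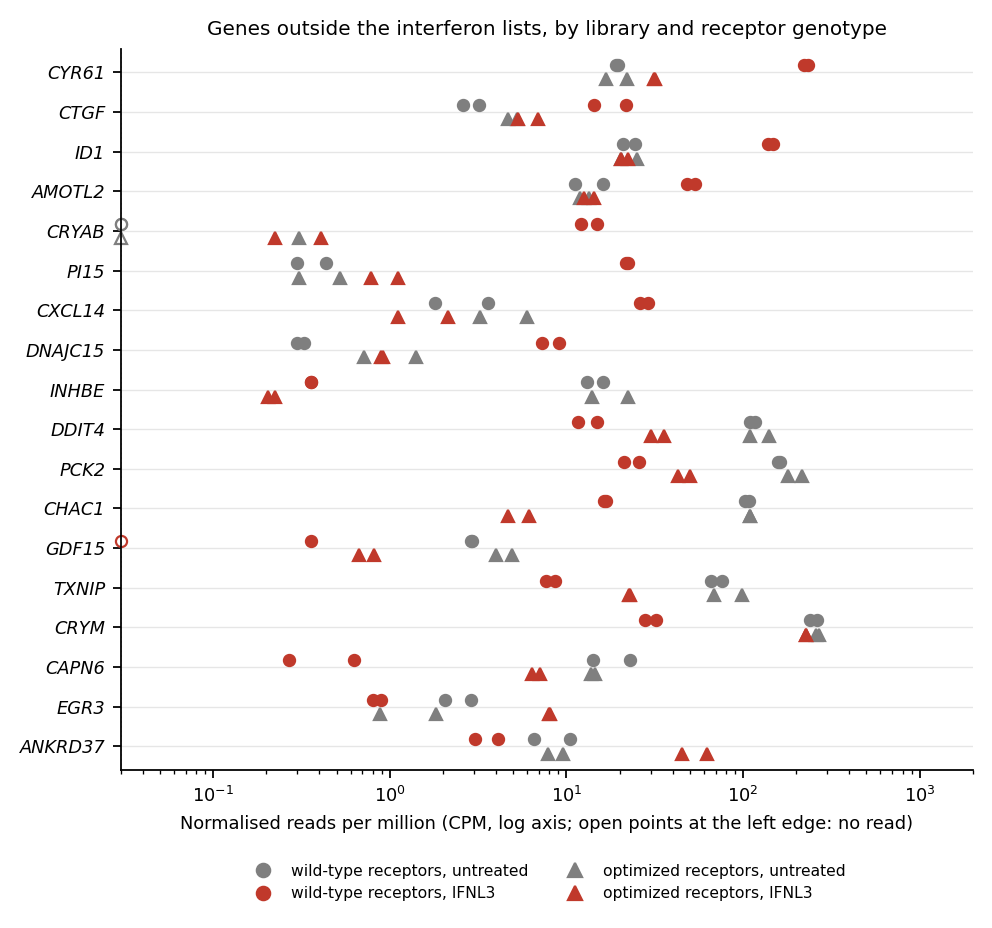
The level of 18 genes outside the interferon lists is plotted in CPM (log axis), with circles for wild-type receptors, triangles for optimized receptors, grey for untreated and red for IFNL3 libraries. CYR61 stood at 233 and 222 CPM with IFNL3 and wild-type receptors but at 31.8 and 31.4 CPM with optimized receptors, and CHAC1 was lower with IFNL3 in both genotypes.

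Ribosomal protein transcripts were lower in 50 of 60 tested genes and higher in 1, with a median of -0.94. RPS3A went from 5310.5 and 5502 CPM to 2034 and 2076 CPM (-1.40 ± 0.14, adjusted p = 1.1e-06) and RPS27 from 1450.2 and 1268 CPM to 442 and 425 CPM (-1.65 ± 0.16). Respiratory chain genes were lower in 26 of 40 and higher in none (median -0.59), among them COX5B from 314 and 361 CPM to 127 and 143 CPM (-1.32 ± 0.13) and COX7B from 1372 and 1218 CPM to 662 and 578 CPM (-1.06 ± 0.19), both subunits of cytochrome c oxidase. Histone genes were lower in 11 of 18 and higher in none (median -0.69), with HIST1H4C going from 4807 and 5182 CPM to 1290.0 and 1278 CPM (-1.96 ± 0.13). These are families of short and abundant transcripts, and short transcripts as a whole were lower with IFNL3. Over the 11490 tested genes with a known transcript length, the change had a Spearman's rho of 0.25 with length, across genes that share the same 4 libraries. The shortest quintile (83 to 2123 bases) had 248 genes higher and 913 lower with a median of -0.36, and the longest quintile (5959 to 34526 bases) 662 higher and 228 lower with a median of 0.23. With a smooth offset for length, 2278 genes were higher (17.9%) and 2280 lower (17.9%). The ribosomal list then had 47 lower and 2 higher (median -0.76), the respiratory chain 18 lower (median -0.33), and the interferon lists 85 higher and 3 lower. With library totals the median was -0.66 in the ribosomal list and -0.31 in the respiratory chain list.

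**Figure D4:**
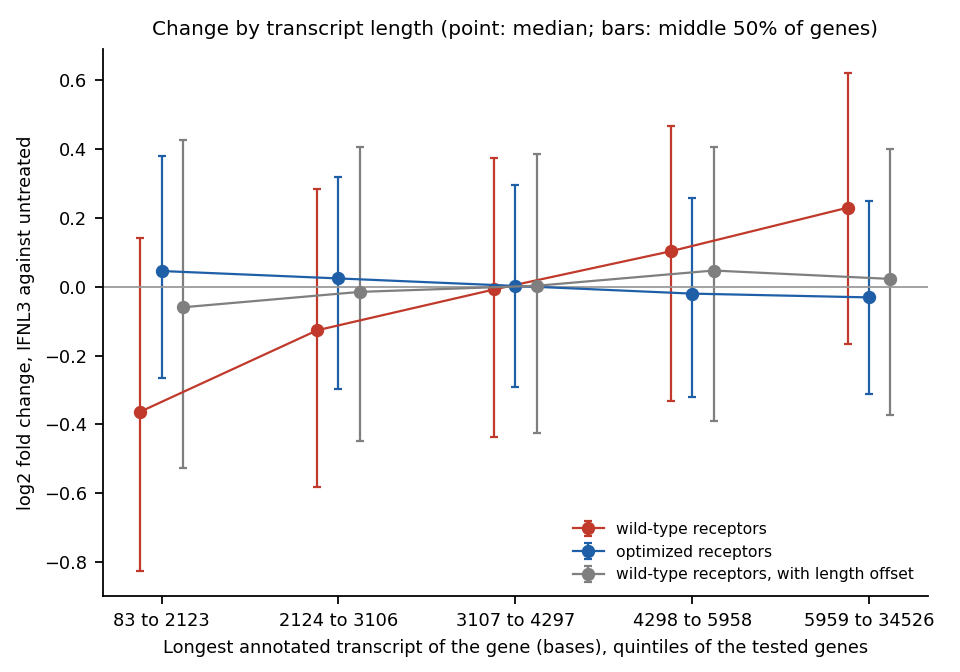
The median log2 fold change (points) and the middle 50% of genes (bars) are plotted for quintiles of the tested genes by the length of the longest annotated transcript, in red for wild-type receptors, in blue for optimized receptors and in grey for wild-type receptors with the length offset. The red medians run from -0.36 in the shortest quintile to 0.23 in the longest, and the blue ones from 0.05 to -0.03.

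Growth, cell cycle and metabolic lists were mixed. Cholesterol synthesis had 5 of 24 genes higher and 7 lower (median -0.24, and 0.04 with library totals), with INSIG1, a sensor of sterols, going from 20.9 and 21.9 CPM to 10.3 and 10.9 CPM (-1.01 ± 0.19) and the synthase gene HMGCS1 rising by 0.62 ± 0.15. In single-library omissions its counts fell to 2 to 3 higher and 3 to 4 lower. Of 24 hypoxia and glycolysis genes, 6 were higher and 8 lower (9 and 5 with library totals), with the vasodilator peptide gene ADM rising from 16.7 and 15.2 CPM to 49.0 and 51.5 CPM (1.66 ± 0.19). Of 14 p53 targets, 1 was higher (MDM2, the ligase that restrains p53, 0.76 ± 0.13) and 5 lower (4 and 4 with library totals). Those lower included the death gene BBC3 (-2.61 ± 0.26) and the stress cytokine GDF15 (-3.92 ± 0.75). GDF15 did not meet the conditions set for the largest falls, which were no overlap between libraries and 5 CPM or more. DNA replication genes had 5 of 24 higher and 3 lower, and mitosis genes 6 of 22 higher and 1 lower, the kinase CDK1 (566 and 634 CPM to 313 and 317 CPM, -0.93 ± 0.15). With library totals DNA replication had 13 higher and 0 lower and mitosis 13 higher and 1 lower. Without IFNL3 replicate 2 or untreated replicate 1 the count of mitosis genes higher was 1, without IFNL3 replicate 1 or untreated replicate 2 it was 2, and with the length offset 3. Growth factor response genes had 1 of 19 higher and 4 lower, NF-kappaB targets 2 of 8 higher, and constitutive proteasome genes 8 of 31 higher and 5 lower, with medians near that of all genes.

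The same treatment of cells with optimized receptors gives a comparison of genotypes. There, 922 genes were higher (7.26%) and 768 lower (6.05%) with IFNL3, against its own pair of untreated libraries. With library totals the split was 727 and 1003. Of those untreated libraries, replicate 1 held 9334209 reads and replicate 2 held 5331203, the fewest of any library in the series. Those untreated libraries differed more between replicates than the other groups did, and the count of calls ranged from 684 to 3131 when single libraries were left out, the highest without untreated replicate 1 of the optimized receptors, and was 225 in the fit of the compared groups alone. The difference between the genotypes' responses was tested as an interaction. It was higher with optimized receptors in 1409 genes (11.1%) and lower in 929 (7.31%), and with library totals in 727 and 2611; the fit of the compared groups alone called 1538 in all. The split turned because library totals moved the median difference over all genes from 0.02 to -0.33, and the genes named below keep their side under both scalings unless a value is given.

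Several interferon-stimulated genes rose in both genotypes but further with optimized receptors. ISG15 went from 17.5 and 13.0 CPM to 4375 and 4369.6 CPM with optimized receptors, against 521 and 595 CPM with wild-type receptors, a difference in log2 response of 3.19 ± 0.20 (adjusted p = 4.6e-08). IFI6 reached 5157 and 5270.4 CPM (difference 2.83 ± 0.16) and IFITM1 463 and 515 CPM (difference 3.64 ± 0.26). IFI27 reached 1057 and 1108 CPM with optimized receptors, a difference of 4.89 ± 0.94 that rests on 5 wild-type untreated reads and lost its call without untreated replicate 1. Others did not pass the test: for IRF9 the difference was -0.33 ± 0.24 (adjusted p = 0.38, and -0.67 with an adjusted p of 0.048 with library totals) and for IFIH1 0.23 ± 0.61 (adjusted p = 0.83). Some responded less with optimized receptors, namely OAS3 (-1.24 ± 0.33), TRIM25 (-1.23 ± 0.21), PML (-1.04 ± 0.23) and IRF1 (-1.15 ± 0.30, adjusted p = 0.012). Over the interferon lists 31 of 129 genes had a higher and 8 a lower response with optimized receptors (24 and 19 with library totals). Across the 126 of these genes with a known transcript length, the difference between genotypes had a Spearman's rho of -0.55 with length, as a description of genes that share libraries.

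MHC class I presentation separated the genotypes. With optimized receptors 13 of 17 genes rose and none fell (median 1.62), and the interaction was higher in 11 and lower in 1. B2M went from 477 and 218 CPM to 2388 and 2376 CPM with optimized receptors, where wild-type cells had 406 and 401 CPM after IFNL3 (difference 3.21 ± 0.31, adjusted p = 4.1e-06). PSMB8 (difference 2.47 ± 0.18) and PSMB9 (2.36 ± 0.26) also had higher responses with optimized receptors. NLRC5 went the other way: it reached 27.0 and 25.9 CPM with optimized receptors against 60.8 and 74.3 CPM with wild-type receptors (difference -1.73 ± 0.27, adjusted p = 3.6e-04). The interaction was higher in 9 of the 17 and lower in 1 with the length offset, and higher in 11 and lower in 2 with library totals.

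**Figure D5:**
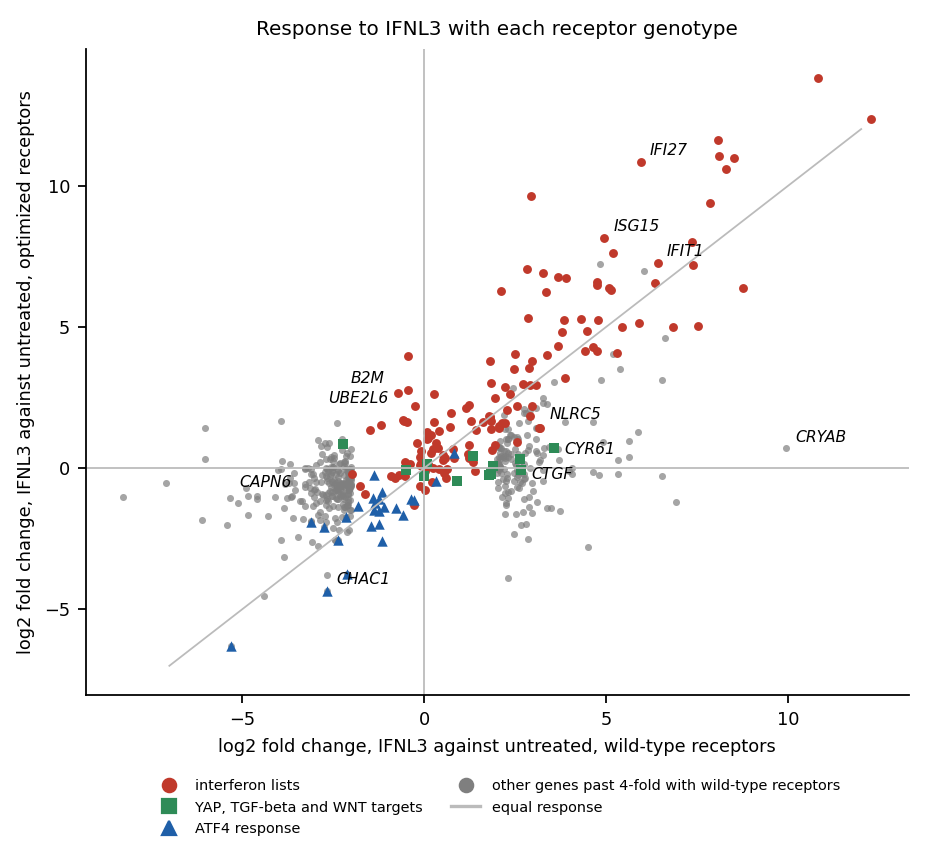
The log2 change with IFNL3 in cells with optimized receptors (vertical axis) is plotted against that in cells with wild-type receptors (horizontal axis) for the interferon lists and the receptor list (red), YAP, TGF-beta and WNT targets (green squares), the ATF4 response (blue triangles) and other genes past 4-fold with wild-type receptors (grey), with a line of equal response. Interferon genes lie on both sides of the line, with ISG15 and B2M above and NLRC5 below it, ATF4 response genes lie low on both axes, and CYR61 (3.55 and 0.72) and CRYAB lie far to the right near 0 on the vertical axis.

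Outside the interferon lists, most ATF4 response genes fell with either receptor. The ATF4 list fell in 22 of 25 genes with optimized receptors (median -1.48), and the interaction was lower in 8 and higher in 2 (11 and 1 with library totals, 8 and 1 with the length offset, 5 and 1 in the fit of the compared groups alone). The count lower was 3 without wild-type IFNL3 replicate 2, 4 without wild-type untreated replicate 1 and 5 without either IFNL3 library of the optimized receptors. CHAC1 fell further with optimized receptors, from 110.1 and 109.8 CPM to 4.69 and 6.14 CPM (difference -1.68 ± 0.27). Heat shock genes rose in 11 of 19 with optimized receptors (6 in the fit of the compared groups alone), the interaction was higher in 3 and lower in 1 (0 and 3 with library totals), and DNAJA1 had a difference of -0.00 ± 0.15. Of the YAP, TGF-beta and WNT list 1 of 13 rose with optimized receptors (median -0.07), and the interaction was lower in 8. That list was chosen with its wild-type change known, and the interaction uses the same wild-type libraries. A lower interaction was thus partly fixed in advance. CYR61 went from 16.8 and 22.1 CPM to 31.8 and 31.4 CPM with optimized receptors (difference -2.83 ± 0.21, adjusted p = 2.5e-07). ID1 went from 20.3 and 25.2 CPM to 20.4 and 22.3 CPM there (difference -2.74 ± 0.23). Among genes that fell with wild-type receptors, CRYM stood at 270.3 and 259 CPM and 227 and 228 CPM with optimized receptors (difference 2.84 ± 0.17). Ribosomal proteins had 6 genes higher and 10 lower of 60 with optimized receptors, and the interaction was higher in 46, in 29 with the length offset and in 25 with library totals.

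Against IFNw in the same wild-type cells, 3458 genes were higher with IFNL3 (27.2%) and 3290 lower (25.9%); with library totals the split was 6744 and 1586, and the median difference over all genes moved from 0.06 to 0.69. Of the interferon lists, 28 of 129 genes were higher and 57 lower with IFNL3, with a median of -0.29, but with library totals 56 were higher and 43 lower, with a median of 0.32, so no direction is given for the lists as a whole. Single genes lay far from either scale's middle. ISG15 was at 7706 and 7857 CPM with IFNw against 521 and 595 CPM with IFNL3 (-3.80 ± 0.14, adjusted p = 5.9e-12), IFI27 at 4199.9 and 3263 CPM (-7.79 ± 0.21) and PSMB9 at 344 and 344 CPM (-4.47 ± 0.19). IRF9 (-0.09 ± 0.12) and IFIT3 (-0.19 ± 0.13) did not pass the test on the TMM scale, and stood at 0.53 and 0.43 with library totals, where both were called higher. DDX58 (1.03 ± 0.14), OAS3 (1.28 ± 0.15) and IRF1 (1.34 ± 0.19) were higher with IFNL3. In the MHC class I list 13 of 17 were lower with IFNL3 and 1 higher, or 12 and 3 with library totals. Across the 126 interferon-list genes with a known length, the difference between ligands had a Spearman's rho of 0.66 with length, with the same limit as above. Relative to each gene's mean over all libraries, long transcripts were favoured in the IFNL3 libraries and disfavoured in the IFNw ones. The rho with length of a library's deviation from that mean was 0.40 and 0.39 against -0.42 and -0.43 over all genes. The part of this trend in the comparison was not tested.

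The largest excesses of IFNL3 over IFNw lay outside the interferon lists. IL7R had no read with IFNw, PI15 was at 0.835 and 0.657 CPM (4.87 ± 0.31) and CRYAB at 0 and 0.657 CPM (5.27 ± 0.60). LTB4R2, a leukotriene receptor gene, was at 5.28 and 4.94 CPM with IFNL3 and 0.278 and 0.263 CPM with IFNw (4.17 ± 0.49), and ENPP2, which encodes autotaxin, at 5.90 and 9.24 CPM and 0.835 and 0 CPM (4.17 ± 0.76). SULT2B1 (-4.66 ± 0.35), the homeobox gene PRRX2 (-4.36 ± 0.49) and the histone gene HIST1H3C (-4.13 ± 0.48) were lower with IFNL3 than with IFNw. The YAP, TGF-beta and WNT list had 10 of 13 genes higher with IFNL3 than with IFNw and none lower. Since the list was chosen with its change in these IFNL3 libraries known, this count was also partly fixed in advance.

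IFNL3 and H11 could not be separated in wild-type cells. With edgeR, 0 genes were higher (0%) and 0 lower (0%), 158 genes had an unadjusted p under 0.05, and DESeq2 called 0. Levels lay side by side: ISG15 was at 544 and 627 CPM with H11 and 521 and 595 CPM with IFNL3, IFIT1 at 722 and 637 CPM and 753 and 692 CPM, and CYR61 at 214 and 216 CPM and 233 and 222 CPM. The log2 difference was -0.07 ± 0.13 for ISG15, 0.09 ± 0.12 for IFIT1 and 0.08 ± 0.13 for CYR61. A test that finds no difference with 2 libraries a group does not show that the ligands act alike.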

How the data were processed

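RNA of 16 HEK293 libraries was counted; the 4 with wild-type receptors and IFNL3 or no treatment carry this account. The deposited files hold whole-number read counts per target, not normalized, per the file headers and values. Sequencing was on Ion Torrent with a kit named as 540 or 550 in the labels' protocols, and the submitters' processing notes name hg19; the aligner, the counter, the amplicon positions and the use of strand are not given here. Of 20812 targets, 10 spike-ins (at most 1 read) were left out, and 27 of 28 symbols turned into dates were renamed by Entrez identifier.

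Counts were tested with edgeR 4.0.16 (limma 3.58.1, R 4.3.3): filterByExpr, TMM, 1 coefficient for each of 8 groups of 2 libraries over all 16, quasi-likelihood tests, threshold 0.05 after Benjamini-Hochberg adjustment over 12704 genes. The estimate of spread was thus shared by all groups (biological coefficient of variation 13.3%). Replicates differed by more than counting noise (chi-square per degree of freedom 6.31 with IFNL3 and 8.14 untreated). Each was counted as a sample, although such a spread may be technical and does not show separate cultures. Intervals and the limit of 3 reads for a count of 0 cover counting error only, since reads were not collapsed by molecule. The 4 libraries held 8734666 to 9559366 reads. Alternatives were DESeq2 1.42.0, edgeR with DESeq2's scaling, every gene kept, a replicate block, the compared groups alone, a length offset (natural spline, 5 degrees of freedom, longest GENCODE transcript), single libraries left out and, chosen after the data were seen, library totals in place of TMM.

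The 31 gene lists, the 5 marker lists and the members were chosen with earlier results of these data known. Named genes were up to 15 in each direction with the largest change (called, no overlap between libraries, 5 CPM or more), up to 5 called members of each list, any member of the receptor, STAT and IRF, feedback, antiviral family, sensor, ISG15, MHC class I and IRF1-linked lists, and in other comparisons up to 5 in each direction plus list members. A few genes within the rule are not reported here. Lists were described by counts and medians, with no test. Promoters came from a RefSeq table of GRCh38.p14, matched by Entrez identifier for 9323 tested genes.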

Additional observations from a re-analysis of the deposited data

Results flagged for a closer look

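The response to IFNL3 differed between receptor genotypes in 2338 genes by edgeR's interaction test. Differences in log2 response are given as optimized minus wild-type receptors, and the 10 genes below had the largest differences, 5 in each direction, among called genes at 5 CPM or more in a compared group.

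On the side of a higher response with optimized receptors, DHX58 (LGP2, a regulator of RNA sensors) had a fitted difference of 6.70. It had no read in the untreated libraries with optimized receptors, so that value depends on the fit; with IFNL3 it reached 10.6 and 11.4 CPM there and 3.40 and 2.33 CPM with wild-type receptors. IFI27 had a difference of 4.89, on few untreated reads, and the call was lost without untreated replicate 1 of the wild-type receptors. CAPN6 had a difference of 4.27, with a fall from 14.2 and 22.9 CPM to 0.626 and 0.269 CPM with wild-type receptors and from 14.5 and 13.8 CPM to 7.13 and 6.36 CPM with optimized receptors. EGR3, an immediate early transcription factor, fell with wild-type receptors (2.06 and 2.89 CPM to 0.894 and 0.808 CPM) and rose with optimized receptors (1.83 and 0.876 CPM to 7.94 and 8.03 CPM), a difference of 3.99. The fall with wild-type receptors lost its call without IFNL3 replicate 2 and without untreated replicate 2. ANKRD37, a target of the hypoxia response, had a difference of 3.85, at 10.5 and 6.58 CPM and 4.11 and 3.05 CPM with wild-type receptors against 9.57 and 7.88 CPM and 62.3 and 45.3 CPM with optimized receptors, and its fall with wild-type receptors lost its call without untreated replicate 1.

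On the other side, CRYAB had a fitted difference of -9.24, which depends on the fit since its untreated wild-type libraries held no read, and which lost its call without untreated replicate 1 of the optimized receptors. With IFNL3 it reached 12.1 and 15.0 CPM with wild-type receptors and 0.407 and 0.223 CPM with optimized receptors. IL7R had a fitted difference of -6.83 on 1 untreated wild-type read, and it lost its call without untreated replicate 2 of the optimized receptors. CXCL14, a chemokine, rose from 3.58 and 1.80 CPM to 28.9 and 26.1 CPM with wild-type receptors and stood at 3.26 and 5.95 CPM and 2.14 and 1.12 CPM with optimized receptors, a difference of -4.77. DNAJC15, a mitochondrial co-chaperone, had a difference of -4.77 as well, with 0.326 and 0.299 CPM and 7.24 and 9.06 CPM against 0.713 and 1.40 CPM and 0.917 and 0.893 CPM. PI15 had a difference of -4.60, with 0.305 and 0.525 CPM and 1.12 and 0.781 CPM in the libraries with optimized receptors.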

How the results depend on the processing

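In wild-type cells the count of genes called with IFNL3 (5047) lay within 1.5 times under every alternative run, at 3476 to 3646 with single libraries left out and, in the others, from 4461 (DESeq2) to 5790 (library totals). Of 238 named results, 203 to 215 kept direction and side of the threshold with single libraries left out, 216 with library totals and 222 to 238 in the others, besides 218 of 224 in the fit of the compared groups alone; no single gene among them reversed. The count of calls fell in each omission, and the cause was not tested. Medians of 8 lists changed sign: p53 targets to 0.0372 without untreated replicate 2 (-0.253 to 0.0372 over omissions) and 0.177 with library totals, the constitutive proteasome to 0.167 with the length offset and 0.170 with library totals, hypoxia and glycolysis to 0.236 with library totals, 0.110 without untreated replicate 2 and 0.010 without IFNL3 replicate 1, ER chaperones to 0.234 with library totals and 0.017 with the length offset, and growth factor response (0.132), cytosolic tRNA synthetases (0.0388), cholesterol synthesis (0.0397) and receptor chains and Janus kinases (0.211) with library totals. With optimized receptors, 225 genes were called in the fit of the compared groups alone and 684 to 3131 with single libraries left out (684 and 789 without IFNL3 replicates 1 and 2, 3131 and 1014 without untreated replicates 1 and 2); for the difference between genotypes the values were 1538 and 1522 (without wild-type IFNL3 replicate 2) to 3412. Against H11, 1 gene was called without the low-count filter. Deviations of same-numbered libraries correlated positively in all 28 pairs of groups, weakly (0.085 to 0.211, the highest for the compared groups), which hints at something shared by number; the labels name nothing shared and the lowest value was small, so the numbers were not taken as pairs. With the replicate block 5695 genes were called in wild-type cells, 2499 with optimized receptors, 3094 for the difference and 7253 against IFNw. The 2 libraries in each group limit every comparison, and amplicon positions and the 24 hr label limit what the lengths and times mean. The ISRE share in raised interferon-list promoters was 63.0% with the bases after the start included.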
